A study of Mus musculus with 2 samples.

Results

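The report concerns 9 genes that mark or build the identity of vagal sensory neurons: Prdm12, Prrxl1, Runx1, Pou4f1, Ebf3, Eya1, Phox2a, Isl1 and Tlx3. They were found by symbol among the 32286 features of the count table, where each has 1 row. Their RNA was followed in nuclei with at least 5000 UMIs (unique molecular identifiers, each standing for 1 captured RNA molecule), which were 722 of 3791 nuclei in the female library and 1250 of 4923 in the male library. The nuclei came from whole vagus nerve ganglia of C57BL/6J mice of the genotype Rosa26-floxed-STOP-Cas9-eGFP on standard chow, which were 8 to 9 weeks old when bought and whose ganglia were taken 4 weeks after their livers had been injected with AAVrg-Cre, a retrograde vector for Cre recombinase. The female library is 1 pool of 14 ganglia from 7 mice, and the male library 1 pool of 16 ganglia from 8 mice. All mice received the virus, no uninjected group is among the samples, and the methods describe no sorting of these nuclei for eGFP. With 1 library of each sex, no test across animals could be made and a difference of sex cannot be told apart from one of library. The intervals given are 95% intervals that cover counting error only.

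The vagal sensory ganglion of the mouse joins a nodose part, whose neurons derive from epibranchial placodes and serve internal organs, and a jugular part, whose neurons derive from the neural crest and resemble the somatosensory neurons of dorsal root ganglia. Sensory neurons of both origins use the homeodomain factors Isl1, Pou4f1 and Tlx3 during development. Placodal neurons also use Eya1, a phosphatase and transcriptional coactivator, and Phox2a, a homeodomain factor shared with autonomic neurons. Neural crest neurons for pain, itch and temperature use Prdm12, a zinc finger protein of the PRDM family, Prrxl1, a paired-type homeodomain protein also called Drg11, and Runx1, a Runt domain factor of non-peptidergic nociceptors. Ebf3 is a helix-loop-helix factor of the early B-cell factor family.

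In mm10, Prdm12 lies at chr2:31640037-31655795, Prrxl1 at chr14:32599407-32649246, Runx1 at chr16:92601466-92826149, Pou4f1 at chr14:104461676-104467999 and Ebf3 at chr7:137193673-137314445. Eya1 lies at chr1:14168954-14310235, Phox2a at chr7:101818313-101822726, Isl1 at chr13:116298281-116309689 and Tlx3 at chr11:33200752-33203589. The genes span from 2838 bases for Tlx3 to 224684 bases for Runx1, and since introns were counted, levels are compared within a gene and not between genes. Prdm12 overlaps Gm13425 on the other strand, Runx1 overlaps Gm26626, Ebf3 overlaps Gm45278 and Gm10578, and Phox2a overlaps Inppl1. The sources used here do not say to which of 2 overlapping genes a read was assigned.

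The sequences just upstream of Prdm12 and Pou4f1, which were higher in jugular-like neurons, and of Phox2a, which was higher in nodose-like neurons, are shown because these genes are set against each other below. Each is the 250 bases before the gene's start on its own strand, from RefSeq on GRCm38.p6, at chr2:31639787-31640036 on the plus strand, chr14:104468000-104468249 on the minus strand and chr7:101818063-101818312 on the plus strand. Capitals mark CANNTG, the E-box to which basic helix-loop-helix factors bind.
Prdm12: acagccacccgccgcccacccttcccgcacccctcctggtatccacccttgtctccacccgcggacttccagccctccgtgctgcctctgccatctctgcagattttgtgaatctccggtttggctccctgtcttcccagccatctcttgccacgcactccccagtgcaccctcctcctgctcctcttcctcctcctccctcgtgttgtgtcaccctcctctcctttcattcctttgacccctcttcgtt
Pou4f1: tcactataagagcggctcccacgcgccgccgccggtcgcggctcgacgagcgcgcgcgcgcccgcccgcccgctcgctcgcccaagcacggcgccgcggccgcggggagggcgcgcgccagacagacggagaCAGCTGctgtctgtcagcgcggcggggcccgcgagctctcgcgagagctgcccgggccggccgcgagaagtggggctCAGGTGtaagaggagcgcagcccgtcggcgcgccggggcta
Phox2a: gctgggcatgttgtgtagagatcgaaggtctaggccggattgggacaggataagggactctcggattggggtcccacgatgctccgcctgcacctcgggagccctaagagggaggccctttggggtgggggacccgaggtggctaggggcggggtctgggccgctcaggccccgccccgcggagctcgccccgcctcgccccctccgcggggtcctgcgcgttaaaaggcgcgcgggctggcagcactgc

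Of the 9 genes, 8 had such a sequence, 1 each except Runx1 with 2. CANNTG was found upstream of 3 genes, which were Pou4f1 with 2 matches, Isl1 with 1 and Runx1 with 3 at 1 of its starts, and 66.2% of the 32851 upstream sequences in the table hold it. TGTGGT, the core to which Runx proteins bind, was found on either strand upstream of Prrxl1 alone among these 8, and 14.0% of all upstream sequences hold it. TAATTA, a homeodomain core, was found in none of the 8 and in 4.84% of all. The 3 motifs were searched on both strands, and matches of CANNTG and TGTGGT can share bases at their ends. The printed stretches are rich in G and C, with 61.2% for Prdm12, 78.0% for Pou4f1 and 70.4% for Phox2a beside a median of 52.4% over all upstream sequences. A match is a description of letters and not a binding site.

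The libraries held 5006 to 124136 UMIs per nucleus among the female nuclei used and 5001 to 121725 among the male ones, with medians of 9260.5 and 11511.5. The 2 libraries shared 8 cell barcodes among all nuclei and 0 among those used. The sex labels fit the sex-linked genes, with 7224 Xist UMIs in female nuclei against 3 in male nuclei, and 3086 Uty UMIs in male nuclei against 1 in female nuclei. Clusters were made without the 9 genes and named from marker lists that hold none of them, which gave 632 nodose-like nuclei in 11 clusters (N1 to N11), 497 jugular-like nuclei in 7 clusters (J1 to J7) and 95 sympathetic neuron-like nuclei in 1 cluster. The nodose list of 11 markers summed to 43.0 and 41.3 UMIs per 10000 UMIs in the nodose-like nuclei of the female and male libraries and to 5.11 and 3.72 in the jugular-like nuclei. The jugular list of 8 markers summed to 8.37 and 8.34 in the jugular-like nuclei and to 0.507 and 1.04 in the nodose-like nuclei. No cluster of macrophages was found at this depth, so endothelial-like nuclei (50, with the mural cell list also high) serve as the background for RNA that is free in the droplets.

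Prdm12, which nociceptors need for their development, was far higher on the jugular side. In the female library its level was 1.16 UMIs per 10000 UMIs in jugular-like nuclei (interval 1.04 to 1.28) and 0.0552 in nodose-like nuclei, from 373 and 17 UMIs. In the male library the levels were 1.36 and 0.101, from 785 and 69 UMIs. The direction was the same in both libraries, and the log2 ratio of nodose-like over jugular-like was -4.35 (interval -5.19 to -3.69) in females and -3.75 (-4.13 to -3.40) in males. At least 1 Prdm12 UMI was found in 76.5% of jugular-like and 11.4% of nodose-like nuclei. With every nucleus thinned to 5000 UMIs these shares were 45.7% and 4.40%, beside 2.50% in endothelial-like nuclei (2 of 50 nuclei as sequenced, at a median of 7370 UMIs against 12763.5 in nodose-like nuclei). The only male endothelial-like nucleus with Prdm12 also held Prrxl1, Pou4f1 and Eya1. The 8 general neuron markers summed to 13.8 and 16.5 UMIs per 10000 UMIs in the endothelial-like nuclei of the female and male libraries. The part of free RNA in the nodose-like share was not tested.

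Prrxl1 followed the same division. Its level was 0.765 in female and 0.837 in male jugular-like nuclei, against 0.0455 and 0.0876 in nodose-like nuclei. The log2 ratios were -4.02 (-4.96 to -3.30) and -3.25 (-3.67 to -2.87). The thinned share fell from 30.8% of jugular-like to 3.32% of nodose-like nuclei, and the latter is below the 4.40% of endothelial-like nuclei.

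Runx1 and Pou4f1 were higher on the jugular side too, but with RNA on the nodose side as well. Runx1 stood at 3.68 and 4.05 in female and male jugular-like nuclei and at 0.676 and 0.603 in nodose-like nuclei, with log2 ratios of -2.44 and -2.75. Pou4f1, the POU factor also called Brn3a, stood at 1.30 and 1.66 against 0.266 and 0.399, with log2 ratios of -2.28 and -2.05. In nodose-like nuclei the thinned shares were 24.5% for Runx1 and 14.4% for Pou4f1, beside 16.5% and 4.80% in endothelial-like nuclei. Ebf3 had the smallest of the jugular excesses, at 2.17 and 2.11 against 0.825 and 0.919, with log2 ratios of -1.39 (-1.61 to -1.18) and -1.20 (-1.34 to -1.06). In nodose-like nuclei its thinned share of 29.3% and its level of 0.890 over both libraries were close to the 28.5% and 0.892 of endothelial-like nuclei. Endothelial-like nuclei are not a floor for this gene, since Ebf3 stood at 0.165 in sympathetic neuron-like, 0.178 in barrier fibroblast-like and 0.297 in Schwann cell-like nuclei.

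Eya1 showed the opposite pattern. Its level was 3.44 in female and 3.65 in male nodose-like nuclei (intervals 3.24 to 3.66 and 3.51 to 3.80), and 0.236 and 0.220 in jugular-like nuclei. The log2 ratios were 3.86 (3.53 to 4.22) and 4.05 (3.79 to 4.32). In jugular-like nuclei the thinned share of 7.44% lay below the 24.4% of endothelial-like nuclei. Endothelial-like nuclei are thus not a floor for Eya1, and the part of free RNA in the jugular-like value was not tested.

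Phox2a was scarce in both sensory classes. It had 23 UMIs in female and 88 in male nodose-like nuclei, and 3 and 27 in jugular-like nuclei. The levels were 0.0747 and 0.129 against 0.0093 and 0.0468, and the log2 ratios 2.81 (1.28 to 5.38) and 1.44 (0.82 to 2.14). Its nodose-like level over both libraries, 0.112 (0.0920 to 0.135), was no higher than the 0.160 (0.0644 to 0.330) of endothelial-like nuclei, which came from 7 UMIs. Endothelial-like nuclei are not a floor for this gene. Phox2a stood at 0.0267 in cerebellar granule-like nuclei and at 0.0511 or less in the jugular-like clusters. The part of free RNA in the nodose-like level was not tested. With the mean over nuclei, Phox2a was no longer 2-fold higher in both libraries. That alternative counts each nucleus the same and adds 0.05 to each level in place of 0.5 UMIs to each sum. The 0.05 is larger than both jugular-like Phox2a levels, so the effects of these 2 changes cannot be told apart.

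Isl1 and Tlx3 did not separate the sides. Isl1 was at 2.05 and 2.16 in nodose-like and 1.60 and 1.69 in jugular-like nuclei, with log2 ratios of 0.36 (0.19 to 0.53) and 0.36 (0.24 to 0.47), so a 2-fold difference lies outside both intervals. Tlx3 was at 0.409 and 0.467 against 0.410 and 0.579, with log2 ratios of 0.00 (-0.37 to 0.36) and -0.31 (-0.53 to -0.08). Isl1 was found in 84.3% of nodose-like and 85.1% of jugular-like nuclei as sequenced, and Tlx3 in 41.6% and 51.7%.

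**Figure D1:**
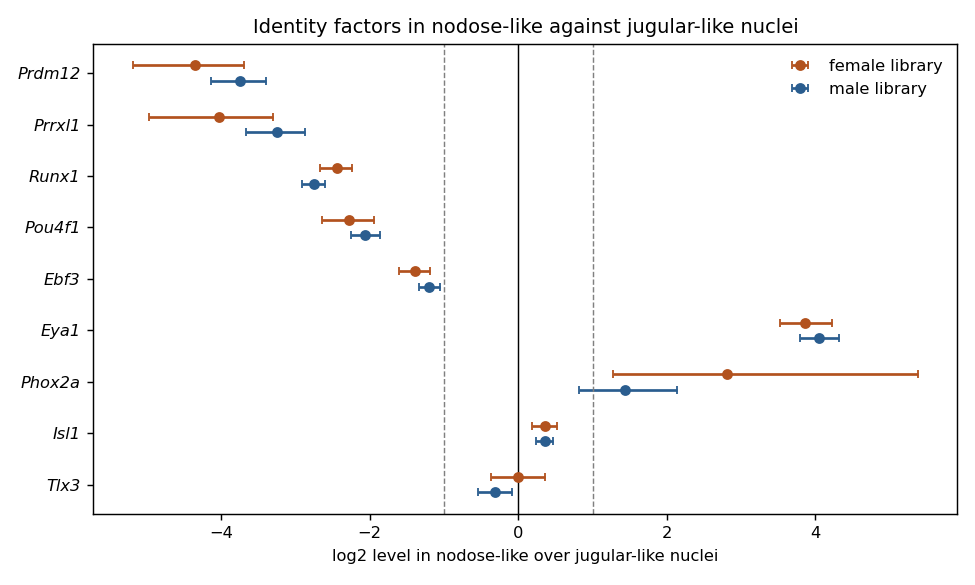
The log2 ratio of each gene's level in nodose-like over jugular-like nuclei (x axis) is plotted for the 9 genes (rows), with 1 point per library and bars for the exact 95% counting interval; dashed lines mark 2-fold. Prdm12, Prrxl1, Runx1, Pou4f1 and Ebf3 lie left of -1 in both libraries, Eya1 and Phox2a right of 1, and Isl1 and Tlx3 between the dashed lines.

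A gene was called where its ratio, with 0.5 UMIs added to both sums, was at least 2-fold in the same direction in both libraries. By this rule 5 of the 9 genes were higher in jugular-like nuclei and 2 in nodose-like nuclei, while 5.74% and 5.71% of the 16519 genes tested were called in these directions. The median log2 ratio of the 9 genes was -1.39 (female library) and -1.20 (male library), against 0.01 and 0.01 over all genes tested. The study names Eya1 and Prrxl1, and the list markers Ntrk2, Negr1, Samsn1 and Gm13425, as enriched on 1 side from these same libraries. It also reports Prdm12 in neuron clusters of these libraries and treats it as a jugular marker, with Tac1 as a jugular and Htr3a as a nodose marker. The directions of these genes are thus not independent evidence. Gm13425 lies across Prdm12 and was in the jugular list. With it left out of clustering and naming, 5 and 2 of the genes were still called, and the mean log2 ratio of Prdm12 over the libraries was -4.02.

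The clusters show where within each side these differences lie. They are named here by leading genes, some of which, such as Mrgprd, Tac1, Gfra3, Trpm8, Vip and Htr3b, were in the naming lists. For Prdm12, Prrxl1, Pou4f1 and Eya1 the levels of the 7 jugular-like clusters and of the 11 nodose-like clusters did not overlap. The share of all genes without such overlap is not given here, so this describes these genes and does not set them apart from others. Prdm12 ran from 0.814 (J3) to 2.04 (J6) in jugular-like clusters and from 0.0240 (N8) to 0.145 (N5) in nodose-like clusters. For Prrxl1 the ranges were 0.541 to 1.17 and 0.0332 to 0.120. For Pou4f1, J3 at 0.974 (0.844 to 1.12) and N2 at 0.899 (0.760 to 1.06) did not differ beyond their intervals. For Eya1, N5 at 0.513 (0.376 to 0.684) and J1 at 0.356 (0.277 to 0.452) did not either. N2, whose leading genes include the mechanosensitive channel Piezo1 and the leukotriene receptor Cysltr2, had 32 female and 116 male Pou4f1 UMIs, at levels of 0.745 and 0.953. N6, led by Dcc and Pappa2, followed at 0.316 and 0.870.

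**Figure D2:**
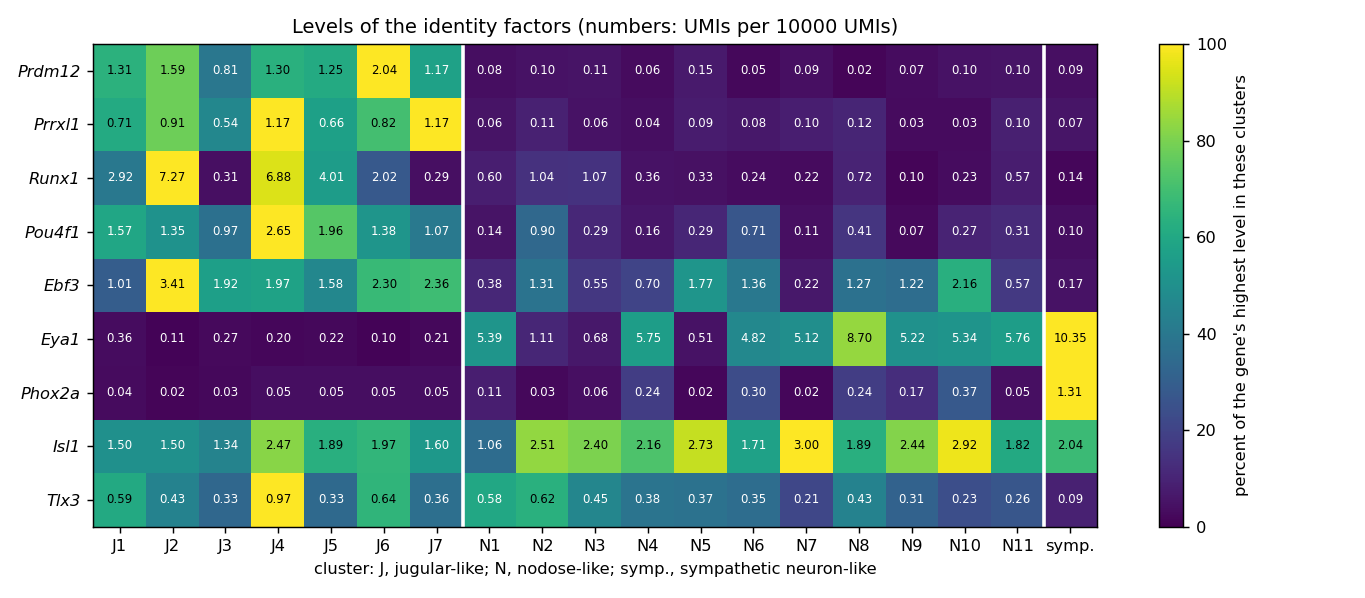
Levels of the 9 genes (rows) in 7 jugular-like, 11 nodose-like and 1 sympathetic neuron-like cluster (columns), as UMIs per 10000 UMIs over both libraries (numbers), with colour as the percent of the gene's highest level in the row. Prdm12, Prrxl1 and Pou4f1 are brightest in the J columns, Eya1 in most N columns and the sympathetic column, and Isl1 is bright on both sides.

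Runx1 split the jugular-like clusters. In J2, led by Mrgprd, the receptor of non-peptidergic nociceptors, together with Grik1, Runx1 stood at 7.57 in female and 7.13 in male nuclei. In J4, led by Tafa4 and Cdh9, it stood at 6.93 and 6.87. These 2 clusters did not differ beyond their intervals, and both lay above J5, which is led by the cold channel Trpm8 and stood at 3.46 and 4.56. J1, with Tac1, Calca and Gfra3 in the lead, and J6, with the itch receptors Il31ra and Osmr, followed at 3.01 and 2.87 and at 2.47 and 1.88. In J3 and J7 Runx1 was low, at 0.506 and 0.185 in J3 and 0.236 and 0.337 in J7. These 2 clusters had the lowest mean log2 fold of the jugular list among the jugular-like clusters, at -0.692 and -0.540. Their nodose list means were lower still, at -1.81 and -2.18. The jugular-like name is less firm for J3, as given below for finer clusters. J3 was led by Meis2 and Chrna7, and J7 by Kit and Bcl11b, and both kept Prdm12 (0.814 and 1.17) and Prrxl1 (0.541 and 1.17). Their Runx1 levels, 0.312 (0.240 to 0.398) and 0.286 (0.148 to 0.499) over both libraries, were in the range of the nodose-like clusters and not above the 0.389 (0.227 to 0.623) of endothelial-like nuclei. Among nodose-like clusters Runx1 was highest in N3 (1.10 and 1.04) and N2 (1.30 and 0.945).

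Eya1 split the nodose-like clusters. In 8 clusters it stood at 3.12 to 14.8 in the female and 4.25 to 7.78 in the male library, and in N2, N3 and N5 at 0.428 to 0.954 and 0.517 to 1.16. The ranges did not overlap in either library. N8, led by Wdr72, Grm5 and Igf1, was highest with 14.8 (11.7 to 18.4) from 6 female nuclei and 7.78 (6.90 to 8.74) from 24 male nuclei. N7, led by Vip, Uts2b and Glp1r, had 3.12 and 6.18, and N1, the largest nodose-like cluster with 135 nuclei, had 5.07 and 5.54. N3 was led by Sez6l, Gpc3 and Htr3b and N5 by Gpr65 and Ntsr1. In these clusters the levels over both libraries, 0.676 (0.555 to 0.816) and 0.513 (0.376 to 0.684), were below the 0.938 of endothelial-like nuclei. The jugular-like clusters were below it too, at 0.356 (0.277 to 0.452, J1) or less. N3 lay above all of them beyond the intervals, whereas N5 and J1 did not differ beyond theirs.

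The clusters with little Eya1 were compared with the other 8 after their Eya1 levels had been seen, so that the following is a description. Phox2a stood at 0.0309 in female and 0.0420 in male nuclei of N2, N3 and N5, and at 0.107 and 0.191 in the other nodose-like nuclei. Runx1 went the other way, at 0.988 and 0.857 against 0.449 and 0.422, and so did Pou4f1, at 0.425 and 0.580 against 0.151 and 0.268. Single clusters did not all follow these sums. Pou4f1 over both libraries was 0.899 in N2 but 0.292 in N3 and 0.290 in N5, below N6 at 0.711 and N8 at 0.407. Runx1 was 0.335 in N5, below N8 at 0.719 and N1 at 0.602. Isl1 was at 2.43 and 2.56 against 1.77 and 1.88. Prdm12 and Prrxl1 stayed at or below 0.126 in both sets of clusters.

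**Figure D3:**
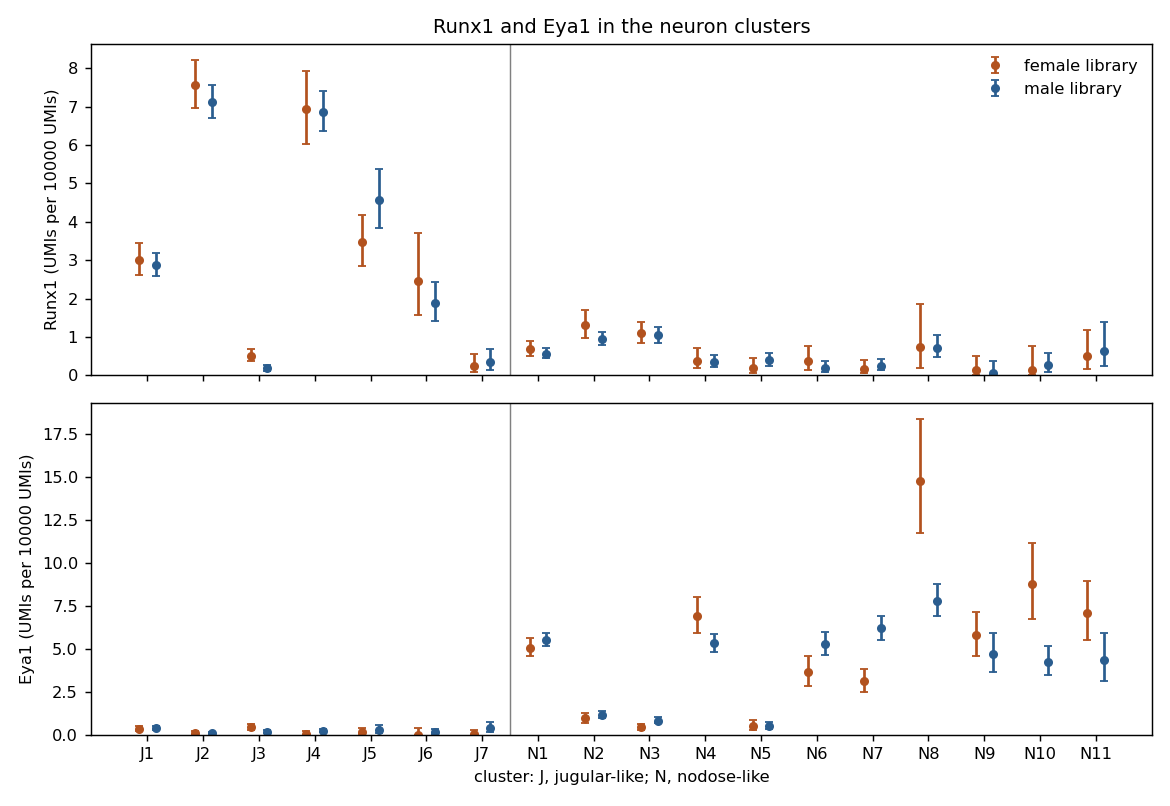
Runx1 (top) and Eya1 (bottom) levels in UMIs per 10000 UMIs (y axis) in each jugular-like (J) and nodose-like (N) cluster (x axis), with 1 point per library and bars for the exact Poisson 95% interval. Runx1 is low in J3 and J7 and at 1.88 or more in the other J clusters, and Eya1 is at 1.16 or less in N2, N3 and N5 and at 3.12 or more in the other N clusters.

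Phox2a within the nodose-like class reached 0.365 (0.182 to 0.653) in N10, 0.302 (0.185 to 0.467) in N6, 0.240 in N4 and 0.240 in N8, from 11, 20, 23 and 10 UMIs. The intervals of these 4 clusters overlap that of endothelial-like nuclei. N10 was led by Gabrb2, Calcrl and the muscarinic receptor Chrm2. In N2, N5 and N7 the level was 0.0304 or less, and neighbours in the order of the clusters did not differ beyond their intervals. Ebf3 overlapped widely between the sides. It was highest in J2 at 3.48 and 3.38, and N7 had 0.319 and 0.169. N10 at 1.37 (from 4 female nuclei) and 2.41, and N5 at 2.05 and 1.66, did not differ beyond their intervals from J3 at 2.07 and 1.83. Isl1 was lowest in N1 at 0.926 and 1.13, and stood at 3.33 and 2.82 in N7 and 2.87 and 2.94 in N10, which did not differ beyond their intervals. Tlx3 was highest in J4 at 0.994 and 0.968, whereas the other 6 jugular-like clusters, from 0.326 to 0.639, overlapped the nodose-like range of 0.209 to 0.619.

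Co-detection asked which of these genes were found in the same nucleus. It is given as the number of nuclei with a UMI of both genes beside the number that independent shares would give, and as the log2 odds ratio. Over the 1129 nodose-like and jugular-like nuclei, 10 of 36 pairs had a log2 odds ratio of 1 or more in both libraries and 4 had -1 or less. The positive pairs include all 6 pairs of Prdm12, Prrxl1, Runx1 and Pou4f1. Prdm12 and Prrxl1 were found together in 259 nuclei, where 145 would be found if independent, with log2 odds ratios of 3.14 and 2.77 in the female and male libraries. Prrxl1 and Pou4f1 gave 302 against 197 nuclei. Ebf3 joined Prdm12, Prrxl1 and Pou4f1, and Eya1 joined Phox2a with 83 nuclei against 54.7. The negative pairs were those of Eya1 with Prdm12 (121 against 215 nuclei), Prrxl1 (97 against 173), Pou4f1 (209 against 292) and Runx1 (261 against 327). As the 2 classes differ in these genes, such pairs repeat that difference, so the same count was made within each class.

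Within nodose-like nuclei 5 pairs passed on the positive side and 0 on the negative, and within jugular-like nuclei 7 and 0. In jugular-like nuclei Prdm12 and Pou4f1 were found together in 336 nuclei, against 319 if independent (log2 odds ratios 1.25 and 2.06), and Runx1 and Pou4f1 in 351 against 337 (2.06 and 1.29). In nodose-like nuclei the 5 pairs included Runx1 with Pou4f1 (115 against 89.1 nuclei), Prrxl1 with Pou4f1 (28 against 18.7) and Ebf3 with Isl1 (289 against 272). The others were Eya1 with Phox2a (75 against 62.9) and Phox2a with Isl1 (83 against 74.2). Deeper nuclei hold more genes of any kind, and depth was not held fixed in these counts. No count for pairs of other genes, and no thinned count within a class, is given here. Thinned to 5000 UMIs, 7 pairs were positive and 5 negative over both classes, and the pairs of Ebf3 with Prdm12, Prrxl1 and Pou4f1 no longer passed.

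**Figure D4:**
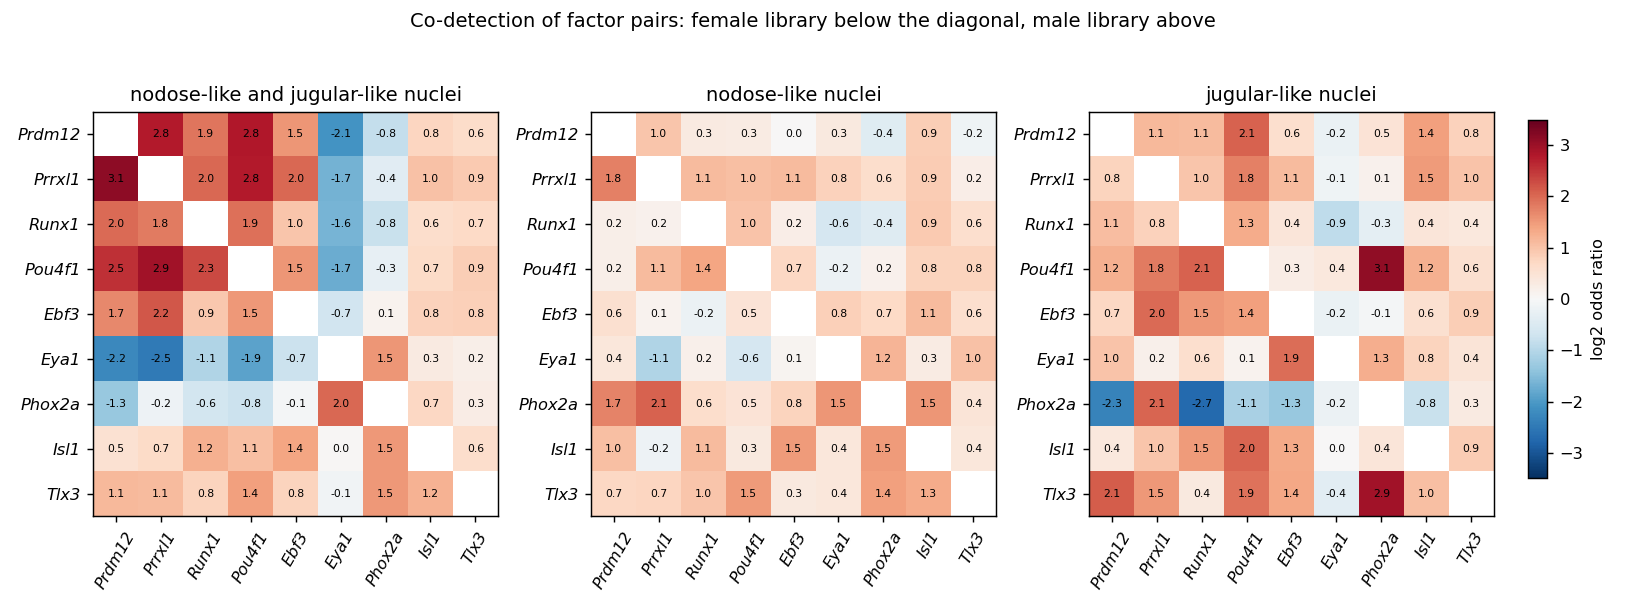
The log2 odds ratio of co-detection for each pair of the 9 genes, with the female library below the diagonal and the male library above it, in nodose-like and jugular-like nuclei together (left), in nodose-like nuclei (middle) and in jugular-like nuclei (right). In the left panel Prdm12, Prrxl1, Runx1 and Pou4f1 form a positive block and are negative with Eya1, and within each class no pair is -1 or less in both libraries.

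All 3 of Prdm12, Prrxl1 and Pou4f1 were found in 230 of 497 jugular-like nuclei (46.3%) and in 6 of 632 nodose-like nuclei (0.949%). None of the 3 was found in 24 jugular-like (4.83%) and 362 nodose-like nuclei (57.3%). Prdm12 and Eya1 were found in the same nucleus in 55 nodose-like and 66 jugular-like nuclei, which had medians of 20158 and 20992.5 UMIs. Nuclei with Eya1 alone on the nodose side, 397 of them, had a median of 13961 UMIs, and those with Prdm12 alone on the jugular side, 314, a median of 14981.5. The nuclei with both were thus the deeper ones in either class, and the part of joined nuclei or of free RNA in them was not tested. The median nodose-like nucleus held RNA of 3 of the 9 genes and the median jugular-like nucleus of 6.

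Of a list of 71 further factors of sensory and autonomic neurons, chosen with earlier results of these data known, 54 had the 20 UMIs needed. In nodose-like nuclei 10 of the 54 were called higher, 16 in jugular-like nuclei, and 28 in neither, with medians of -0.30 and -0.44 in the 2 libraries. Over all genes tested, 5.71% were called higher in nodose-like and 5.74% in jugular-like nuclei. Tbx3, among these 10, was in the nodose naming list, so its call is not independent of the class names. Gata3 was in the sympathetic list. The highest on the nodose side were Eya4, a paralog of Eya1 (0.841 and 0.768 in nodose-like against 0.0280 and 0.0173 in jugular-like nuclei), the zinc finger genes St18 (2.23 and 2.10 against 0.0715 and 0.0884) and Gata3, and Cux2 and Etv1. Eya4 was not spread as Eya1 was: it reached 7.33 in N9 and 4.41 in N8 but 0.315 in N1 and 0.123 in N7, where Eya1 was high. St18 was highest in N7 at 6.81 and N1 at 5.30, and Gata3 was held by N9 at 1.53, with 0.0417 or less in the other nodose-like clusters. Etv1 and Cux2 were present in all 11 nodose-like clusters, those with little Eya1 included, from 1.13 to 7.19 for Etv1 and from 0.870 to 2.70 for Cux2. Single jugular-like clusters reached these ranges. Etv1 stood at 1.92 (1.51 to 2.40) in J6, above N11 at 1.77, N10 at 1.49, N6 at 1.38 and N8 at 1.13. The other jugular-like clusters had 0.594 or less. Cux2 stood at 0.789 (0.586 to 1.04) in J5, an interval that holds the level of N1, and at 0.510 or less in the other jugular-like clusters.

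On the jugular side the highest were Pou4f2, Bcl11b, Hmx1, Mafa and Meis2. Pou4f2, a paralog of Pou4f1, had 30 female and 95 male UMIs in jugular-like nuclei against 0 and 5 in nodose-like nuclei, and its level of 0.712 in J4, where Pou4f1 was highest too, was above the 0.0947 or less of every other neuron cluster. In J3 and J7, where Runx1 was low, Meis2 stood at 3.13 (J3) and Bcl11b at 1.79 (J7). Mafa was highest in J3 as well, at 0.151. With finer clusters, at a Leiden resolution of 2.0, the classes held 666 and 463 nuclei in place of 632 and 497, and the mean log2 ratios became 0.01 for Mafa and -0.03 for Meis2, while the calls of the 9 genes stayed at 5 and 2. J3 held the most Meis2 and Mafa UMIs of the neuron clusters, 642 and 31. Its jugular-like name is thus uncertain for part of its nuclei, and which nuclei changed class is not given here.

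Outside the sensory neurons, Eya1 and Phox2a were highest in sympathetic neuron-like nuclei, which the lists named by Th, Dbh and Slc6a2. Eya1 stood there at 11.3 and 10.3 in the female and male libraries, and Phox2a at 1.65 and 1.28, from 6 and 89 nuclei. Isl1 was shared by these nuclei at 2.24 and 2.03. The other 6 genes were near absent, at 0.165 or less over both libraries, among them Tlx3 at 0.0878 and Pou4f1 at 0.103, which are sensory factors. Eya1 was also as high in barrier fibroblast-like nuclei, cells of the layers around the ganglion, at 11.5 and 8.93, with 95.5% of these 111 nuclei holding a UMI. Ebf3 stood at 2.24 and 1.63 in the 30 adipocyte-like nuclei, similar to its jugular-like level. By the highest class, 5 of the 9 genes peaked in a sensory neuron class, and the share of all genes that do so is not given here. For Ebf3 and Isl1 the highest class is uncertain. The adipocyte-like Ebf3 level over both libraries, 2.14 (1.60 to 2.80), spans its jugular-like levels of 2.17 and 2.11 in the female and male libraries. The sympathetic neuron-like Isl1 level, 2.04 (1.85 to 2.26), spans its nodose-like levels of 2.05 and 2.16.

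**Figure D5:**
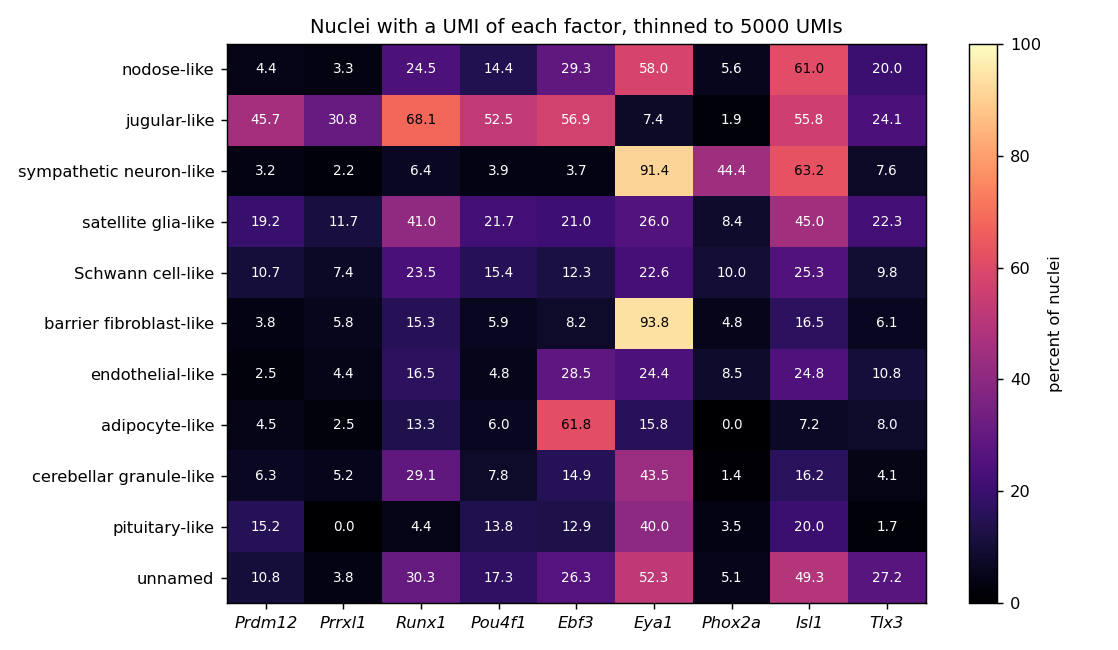
Percent of nuclei with at least 1 UMI of each gene (columns) in each class of nuclei (rows) over both libraries, after every nucleus was thinned to 5000 UMIs, as the mean of 20 draws. Prdm12 is found in 45.7% of jugular-like and 4.40% of nodose-like nuclei, and Eya1 is found in over 90% of sympathetic neuron-like and barrier fibroblast-like nuclei.

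Satellite glia-like nuclei held RNA of the sensory factors, mostly in the male library. Prdm12 stood there at 0.356 in female and 0.860 in male nuclei, Pou4f1 at 0.178 and 1.22, Isl1 at 0.676 and 1.91, and Runx1 at 1.28 and 1.93. All 8 general neuron markers had UMIs in these nuclei and summed to 21.4 and 29.1, beside 13.8 and 16.5 in endothelial-like and 31.7 to 40.6 in sensory neuron-like nuclei. Their part in these values was not tested. The 137 nuclei of a cluster left unnamed, with muscle genes such as Ttn and Myh2 in the lead, held Isl1 at 1.40 and 1.88, Eya1 at 3.08 and 2.49 and Tlx3 at 0.485 and 0.698, with neuron markers summing to 33.3 and 37.5.

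Between the libraries few of the 9 genes differed by 2-fold. In jugular-like nuclei 1 gene was at least 2-fold different, where 3.81% of 14453 genes were, and in nodose-like nuclei 0 of the 9 were, where 3.72% of 14806 genes were. With a minimum of 10000 UMIs the latter count was 2, Prrxl1 with a log2 ratio of 1.45 and Phox2a with 1.12. The share of all genes at that minimum is not given here, so this count has no background. These are counts without a test. The gene was Phox2a, with 27 male and 3 female UMIs in jugular-like nuclei and a log2 ratio of male over female of 2.13 (0.63 to 4.69). Both of its levels lay below that of endothelial-like nuclei. Sympathetic neuron-like nuclei, which hold the most Phox2a, were 7.12% of male nuclei but 0.831% of female nuclei among those used, and the 7 markers of that class summed to 1.12 in male and 0.267 in female jugular-like nuclei, with Hand2 at 0 in the female ones. The part of this in the difference was not tested. With the mean over nuclei, and 0.05 added to the levels in place of 0.5 UMIs to the sums, the log2 ratio was 0.64. In nodose-like nuclei the intervals of Prdm12, Prrxl1, Pou4f1 and Phox2a lay above 0, with log2 ratios of 0.84 (0.09 to 1.73), 0.91 (0.09 to 1.90), 0.58 (0.22 to 0.96) and 0.76 (0.11 to 1.51). Of these, Prdm12 and Prrxl1 were at levels of 0.101 or less. For Eya1 in nodose-like nuclei the log2 ratio was 0.08 (-0.02 to 0.19), and for Runx1 and Prdm12 in jugular-like nuclei 0.14 (0.04 to 0.24) and 0.23 (0.05 to 0.41), so a 2-fold difference lies outside these intervals. Tlx3 and Pou4f1 were also higher in male jugular-like nuclei, at 0.49 (0.20 to 0.80) and 0.35 (0.19 to 0.53).

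The genes with the most similar pattern over 36 points, each a cluster in 1 library with at least 20 nuclei, are given as a description, since the points of a library share its depth and free RNA. Prdm12 and Prrxl1 were among the closest to each other, with a Pearson r of 0.86 on the log2 level. Runx1 was closest to Cd44 (0.81) and Syt7 (0.78), Pou4f1 to Gabbr2 (0.86) and Mctp2 (0.86), and Ebf3 to Tmem131l (0.86) and Trim36 (0.85). Eya1 was closest to Zbtb7c (0.87). Phox2a was closest to Ddc (0.85), Tbx20 (0.82) and Slc18a2 (0.77), of which Ddc and Slc18a2 make and store monoamines and Slc18a2 is a marker of the sympathetic list. Isl1 was closest to the neuronal genes Dpysl5 (0.90), Kif5a (0.90) and Atcay (0.89), and Tlx3 to Lrrc75b (0.80), Six4 (0.79) and the glutamate transporter gene Slc17a6 (0.78), a marker of the neuron list. Prdm12 was closest to Pifo (0.89) and Dgkh (0.87), and Prrxl1 also to Samsn1 (0.84), a marker of the jugular list. The order of these genes rests on the nuclei taken, since 6 of the 27 stayed among the nearest 3 at a minimum of 10000 UMIs.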

How the data were processed

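The deposited values are raw UMI counts for each gene in each nucleus, which the authors made with Cell Ranger 7.1.0 on mm10 with introns and an added transgene sequence. Barcodes were filtered with DIEM, and cellranger aggr combined both libraries after evening out their mapped reads. The study says that possible doublets were taken out with these programs, its methods describe no such step, and no caller was run here. The barcodes' library number gave the sex, since the numbers of nuclei equal those stated for females and males. The members and lists were chosen with earlier results of these data known, and the limits for naming clusters after the clusters had been seen.

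Counts of nuclei with at least 5000 UMIs (10427979 female and 18696388 male UMIs) were scaled and log-transformed, and 2000 variable genes without the 9 genes and 6 sex-linked genes gave 30 principal components, 15 neighbours and Leiden clusters at resolution 1.0 (leidenalg 0.10.2), again within neurons. A name needed 3 markers at least 1.5-fold higher. A neuron cluster took the side of the list with the higher mean log2 fold, and in some clusters that mean was below 0. Cluster J6 had a mural marker and no jugular marker among its 10 leading genes. Levels are summed UMIs per 10000, with exact Poisson intervals, shares with Clopper-Pearson intervals, and ratios with exact conditional intervals. Thinned shares are means of 20 draws. Genes named beyond the 9 were, of the further factors, the 5 with the largest ratio in each direction with at least 50 UMIs, and for each gene the 3 with the highest correlation of log2(level + 0.05) among genes with at least 200 UMIs, predicted genes left out. Positions come from GENCODE M21. The calls were checked on simulated counts with the classes given, and the co-detection on simulated nuclei without a spread in depth. Clustering, naming and the effect of depth on co-detection were thus not checked by simulation. Alternatives are given in the closing section.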

Additional observations from a re-analysis of the deposited data

How the results depend on the processing

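With 1 library per sex no group could lose a replicate. No paired analysis was possible because each sex is 1 library. The rule for a call asks for 2-fold in both libraries, so each library alone must hold the same 7 calls. These calls between nodose-like and jugular-like nuclei stood with finer or coarser clusters and with genes scaled within each library. They stood too with the 9 genes kept in the clustering and with a minimum of 10000 UMIs. They also stood in 3 alternatives chosen after seeing the data, which left out Gm13425, nuclei over 30000 UMIs, or cluster J6. With the mean over nuclei, 0.05 was added to the levels in place of 0.5 UMIs to the sums. The genes higher in nodose-like nuclei then fell from 2 to 1 (Phox2a, mean log2 ratio 1.04). Those different between the sexes in jugular-like nuclei fell from 1 to 0. With a minimum of 10000 UMIs 2 genes in place of 0 differed between the sexes in nodose-like nuclei, Prrxl1 (1.45) and Phox2a (1.12). The share of all genes at that minimum is not given here. Thinned to 5000 UMIs, 4 of the 9 genes in place of 7 were found in at least 50% of jugular-like nuclei. The share of all genes past this limit is not given here, so neither count sets these genes apart. With detection at 2 UMIs, 16 pairs in place of 10 were positive. Of the 27 most similar genes, 6 stayed at a minimum of 10000 UMIs. Mafa turned from -3.20 to 0.014 at a Leiden resolution of 2.0. The cause of these changes was not tested. Of 85 alternative values of the main counts, 79 stayed within 1.5 times the reported count. The 85 include 6 values from each library alone. Phox2a had 3 to 88 UMIs per class and library, which leaves its ratios with wide intervals.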
